A study of Homo sapiens with 24 samples.

Results

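The MYC, MAX and MXD network is a set of transcription factors that bind DNA as pairs. It was described here by its 9 genes MYC, MAX, MXD1, MXD3, MXD4, MXI1, MNT, MLX and MGA, which were chosen by gene symbol from the 26645 gene entries of the count table. All 9 passed the filter on low counts, with raw counts between 175 (MXD3) and 31626 (MYC) per library. RNA was sequenced from MB468 cells (MDA-MB-468, a triple-negative breast cancer line whose proliferation depends on Met and stops with Hcy, the metabolic precursor, in its place) and from MB468res-R8 cells, a Met-independent derivative of that line that goes on dividing in Hcy. MB468res-R8 is a single clone obtained by long culture in Hcy medium, so the line comparison is a comparison of 1 clone with its parent. Cells growing in Met+ media (100 µM Met) gave the 0 h libraries of each line, and cells collected 0.5, 2 and 12 h postmedia switch had been moved to Met-Hcy+ media, with 370 µM Hcy and no Met. Both media contained dialyzed serum, vitamin B12, glutamine and cysteine. There were 3 replicate libraries in each of the 8 groups and 24 libraries in all. No group was switched to fresh Met+ medium, so the change of medium and the loss of Met cannot be told apart at any time.

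MAX is the common partner of this network. MYC with MAX binds the E-box CACGTG and activates genes of growth, ribosome production and metabolism. The MXD proteins, MXI1 and MNT pair with the same MAX and repress the same kind of site through SIN3 corepressors, and so compete with MYC. MLX pairs with MXD1, MXD4 and MNT and with the nutrient-sensing factors MondoA (MLXIP) and ChREBP (MLXIPL), and MGA is a large MAX partner that sits in a variant Polycomb repressor complex. MYC is a frequent driver of breast cancer, and its mRNA and protein are short-lived.

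The E-box itself can be looked for in the network's own promoters. Promoter windows of 300 bases, running from 250 bases before to 50 bases after the RefSeq start (GRCh38.p14), were found for 8 of the 9 genes in 13 windows. No window was available for MYC, so its promoter was not searched. CACGTG, which reads the same on both strands, was in 3 of the 13 windows, and in 2548 of all 35116 RefSeq windows (7.26%). The 3 genes were MXD4, MNT and MLX. The bases around each E-box are shown 5′ to 3′ on the strand of the gene, with the E-box in capitals, and they lie at chr4:2262328-2262359 (MXD4, minus strand, E-box from base -238), chr17:2401234-2401293 (MNT, minus strand, from base -193) and chr17:42567010-42567069 (MLX, plus strand, from base -50), all upstream of the start.
MXD4: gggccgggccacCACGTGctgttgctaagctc
MNT: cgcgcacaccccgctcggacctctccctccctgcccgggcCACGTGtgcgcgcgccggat
MLX: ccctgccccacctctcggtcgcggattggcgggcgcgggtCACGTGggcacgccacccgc
The match describes these letters only. Binding at these sites was not measured.

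Totals ranged from 11745553 to 36496655 counts per library (median 20503827), of which 0.201% to 0.303% fell on spike-in RNAs. Levels are given as CPM, the counts of a gene scaled to the TMM effective library size, in the order of replicates 1, 2 and 3. Changes are log2 fold changes with SE, and each adjusted p is the Benjamini-Hochberg value of the quasi-likelihood test in edgeR over 14741 genes. Libraries of bulk RNA cannot tell fewer cells with a transcript from less of it per cell. A gene is said to rise, fall or change at an adjusted p under 0.05, and the share of all tested genes that did so is given beside each count of network genes. The median log2 change of all genes lay between -0.019 and 0.007 within the lines and at 0 h under TMM. With scaling by the spike-ins it was -0.20, -0.42 and -0.23 in MB468 cells at 0.5, 2 and 12 h, 0.04, -0.04 and 0.00 in MB468res-R8 cells, and -0.31 for the 0 h line difference. Calls of network genes that this scaling changes are named with the gene. The 8 epithelial and basal markers summed to between 9473 and 13160 CPM in each library. At 12 h in MB468 2 of them rose (KRT5 and EGFR) and 5 fell, among them KRT19 (-1.37), KRT8 (-0.71) and KRT18 (-0.39), and in MB468res-R8 4 rose and 3 fell. Progesterone receptor (PGR) was at most 0.0984 CPM, while ERBB2 reached 97.3 CPM and ESR1 22.6 CPM. The leukocyte marker PTPRC was at most 0.199 CPM, CD3E at most 0.083 CPM and COL1A2 at most 0.0616 CPM, whereas COL1A1 was found at 14.6 to 73.2 CPM, CD68 at 2.85 to 10.02 CPM, PECAM1 at up to 2.67 CPM and VWF at up to 1.56 CPM. The 8 markers of leukocytes, endothelium and fibroblasts summed to 20.87 to 82.37 CPM. At 12 h COL1A1 fell in both lines (-1.18 and -0.98) and CD68 rose in MB468res-R8 (0.75), and the part of other cells in the results was not tested.

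MYC was the network gene with the highest level, and its transcript rose within 0.5 h in both lines. It was at 386.5, 422.9 and 378.9 CPM in MB468 cells at 0 h and at 383.9, 431.9 and 418.7 CPM in MB468res-R8 cells, and these ranges overlapped (log2 difference of MB468res-R8 from MB468 0.05, SE 0.052, adjusted p = 0.41, and -0.25 with spike-in scaling, adjusted p = 0.0806). At 0.5 h it was at 1034, 993.5 and 1034 CPM in MB468 cells and at 1145, 1059 and 1086 CPM in MB468res-R8 cells. Every library at 0.5 h was above every library at 0 h, with a rise of 2.57-fold in MB468 (log2 1.36, SE 0.0523, adjusted p = 3.02e-20) and 2.67-fold in MB468res-R8 (log2 1.42, SE 0.0523, adjusted p = 1.17e-20). Under spike-in scaling the rise was log2 1.15 and 1.47, both past the threshold. The line difference in this early response was 0.05 (SE 0.0728, adjusted p = 0.852).

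The lines separated by 2 h. MYC was still at 876.9, 915.7 and 810.6 CPM in MB468 cells, but had returned to 481.2, 550.7 and 507.2 CPM in MB468res-R8 cells, with no overlap between the lines. Relative to 0 h this was a rise of 2.19-fold in MB468 (log2 1.13, SE 0.0522, adjusted p = 1.42e-17) and of 1.25-fold in MB468res-R8 (log2 0.32, SE 0.0519, adjusted p = 8.07e-05). The response of MB468res-R8 was lower by log2 -0.81 (SE 0.0733, adjusted p = 1.04e-09). By p, this line difference ranked 38 of the 14741 genes at 2 h. Under spike-in scaling, the 2 h rise in MB468 was 0.72 (adjusted p = 7.47e-07), the rise in MB468res-R8 0.27 (adjusted p = 0.797), and the line difference -0.45 (adjusted p = 0.0797).

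At 12 h the lines lay on opposite sides of their 0 h level. MYC was at 511.3, 501.4 and 528.3 CPM in MB468 cells, all above 0 h (log2 0.37, SE 0.0517, adjusted p = 1.14e-07). In MB468res-R8 cells it was at 343.2, 321.7 and 357.0 CPM, all below 0 h (log2 -0.27, SE 0.0522, adjusted p = 3.74e-05). The line difference was -0.65 (SE 0.0734, adjusted p = 4.75e-09). With spike-in scaling none of these 3 values passed the threshold: they were 0.14 (adjusted p = 0.349), -0.25 (adjusted p = 0.101) and -0.39 (adjusted p = 0.0686). Across the 8 groups MYC spanned 3.22-fold, from 1097 ± 44.2 CPM (SD, n = 3) in MB468res-R8 at 0.5 h to 341 ± 17.8 CPM in MB468res-R8 at 12 h. Of neighbours in the order of group means, MB468 at 12 h overlapped MB468res-R8 at 2 h, and the 0 h groups overlapped each other. MYC lies on chromosome 8.

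**Figure D1:**
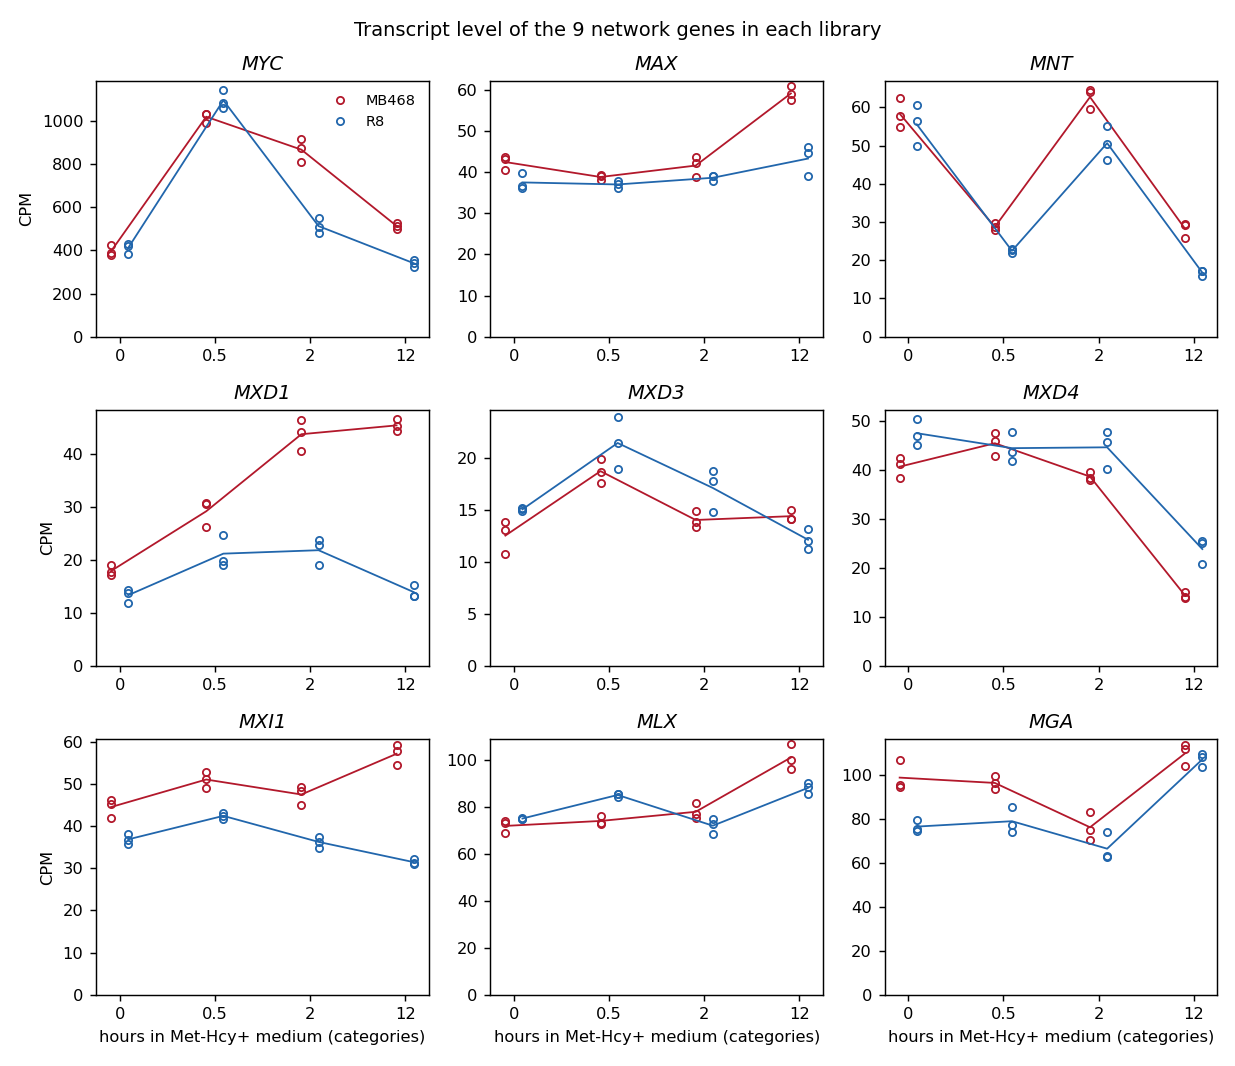
Level of each network gene in CPM (vertical axis, from 0) in each of the 24 libraries against hours in Met-Hcy+ medium (horizontal axis, categories), with 1 circle per library, lines through the group means, MB468 in red and MB468res-R8 in blue. MYC is at 993.5 CPM or more in every 0.5 h library, MNT is low at 0.5 and 12 h, and MXD1 at 12 h is at 44.29 CPM or more in MB468 and at 15.32 CPM or less in MB468res-R8.

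MAX (chr14:65006174-65102695, minus strand, GENCODE annotation of GRCh38) varied far less than MYC, spanning 1.6-fold over the 8 groups. It was at 43.78, 43.19 and 40.46 CPM in MB468 cells and at 36.53, 39.83 and 36.21 CPM in MB468res-R8 cells at 0 h, lower in every MB468res-R8 library (log2 -0.18, SE 0.0607, adjusted p = 0.0104). No change passed the threshold at 0.5 or 2 h in either line, with log2 values from -0.13 to 0.05, although spike-in scaling gave a fall of 0.46 in MB468 at 2 h (adjusted p = 0.0035). Without MB468 0 h replicate 3 the value of MB468 at 0.5 h, -0.17, passed it (adjusted p = 0.0453). At 12 h MAX rose in MB468 cells to 59.02, 57.56 and 60.95 CPM (log2 0.48, SE 0.0579, adjusted p = 1.73e-09). In MB468res-R8 cells it rose to 46.26, 39.15 and 44.57 CPM, 1 of which lay within the 0 h range (log2 0.21, SE 0.0605, adjusted p = 0.00271). The line difference at 12 h was -0.27 (SE 0.0837, adjusted p = 0.00649). That call was lost without MB468 0 h replicate 3 (-0.19), MB468res-R8 0 h replicate 2 (-0.18) or MB468res-R8 12 h replicate 2 (-0.16). With spike-in scaling the 12 h values were 0.24 (adjusted p = 0.121) in MB468, 0.22 (adjusted p = 0.191) in MB468res-R8 and -0.02 (adjusted p = 0.959) for the difference.

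Among the MAX partners that oppose MYC, MNT (chr17:2384073-2401104, minus strand) had the largest change at 0.5 h. MNT is the broadly expressed antagonist, found in dividing and resting cells alike. It was at 62.44, 54.82 and 57.88 CPM in MB468 cells at 0 h and fell to 27.85, 29.72 and 28.58 CPM at 0.5 h. In MB468res-R8 cells it fell from 56.37, 60.53 and 49.83 CPM to 22.59, 21.97 and 22.84 CPM. In both lines MNT was thus below its 0 h range at the time when MYC was above its own. At 0 h the lines differed by log2 -0.07 (adjusted p = 0.408), or by -0.39 with spike-in scaling (adjusted p = 0.0114). The changes at 0.5 h were log2 -1.02 (SE 0.0712, adjusted p = 2.98e-15) and -1.31 (SE 0.0728, adjusted p = 2.55e-18).

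By 2 h MNT was again within its 0 h range in part of the libraries, at 63.98, 64.49 and 59.72 CPM in MB468 and 50.48, 55.22 and 46.28 CPM in MB468res-R8, with log2 values of 0.10 (adjusted p = 0.362) and -0.13 (adjusted p = 0.41). At 12 h it fell once more, to 29.22, 25.75 and 29.55 CPM in MB468 (log2 -1.04, SE 0.0685, adjusted p = 5.59e-17) and to 17.25, 15.82 and 17.22 CPM in MB468res-R8 (log2 -1.73, SE 0.0744, adjusted p = 2.92e-22). The line difference at 12 h was -0.68 (SE 0.101, adjusted p = 2.37e-07), but -0.41 with spike-in scaling (adjusted p = 0.078). The falls at 0.5 and 12 h held under spike-in scaling in both lines, at log2 -1.24 and -1.295 in MB468 and -1.26 and -1.71 in MB468res-R8, and at 2 h in MB468 that scaling gave -0.32 (adjusted p = 0.0329), with the opposite sign. MNT had the widest span of the 9 genes, 3.74-fold. A noncoding gene on the other strand covers 21.6% of the MNT transcript, and reads of these partners cannot be told apart without strand.

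MXD1 (chr2:69897688-69942945, plus strand), an antagonist known from differentiating cells, rose in both lines at 0.5 and 2 h, and at 12 h was high in MB468 and back at its 0 h level in MB468res-R8. It was at 18.97, 17.06 and 17.67 CPM in MB468 cells at 0 h, and at 30.73, 26.28 and 30.53 CPM at 0.5 h, 44.21, 40.57 and 46.45 CPM at 2 h and 45.38, 46.56 and 44.29 CPM at 12 h. In MB468res-R8 cells it went from 13.70, 14.36 and 11.90 CPM to 24.66, 19.10 and 19.76 CPM at 0.5 h and 23.76, 22.73 and 18.98 CPM at 2 h, and was back at 13.21, 15.32 and 13.20 CPM at 12 h. All later MB468 libraries were above the 0 h range, whereas the 12 h libraries of MB468res-R8 overlapped it.

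The 0 h level of MXD1 was lower in MB468res-R8 by log2 -0.42 (SE 0.0966, adjusted p = 0.000339). The rise at 0.5 h was 0.70 in MB468 (adjusted p = 4.47e-08) and 0.67 in MB468res-R8 (adjusted p = 3.44e-07), with a line difference of -0.03 (SE 0.132, adjusted p = 0.962). At 2 h it was 1.29 in MB468 (adjusted p = 2.12e-14) and 0.72 in MB468res-R8 (adjusted p = 1.01e-06), a difference of -0.58 (SE 0.13, adjusted p = 0.0035) that was -0.18 with spike-in scaling (adjusted p = 0.465). At 12 h the changes were 1.34 in MB468 (SE 0.0859, adjusted p = 7.81e-17) and 0.05 in MB468res-R8 (SE 0.0992, adjusted p = 0.678). The difference of -1.29 (SE 0.131, adjusted p = 7.87e-11) was the largest of the network at 12 h and held with spike-in scaling, at -1.02 (adjusted p = 8.86e-06).

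MXD4 (chr4:2247432-2262109, minus strand) was the late-falling antagonist. It was at 42.40, 38.35 and 41.14 CPM in MB468 cells and at 46.99, 50.35 and 45.06 CPM in MB468res-R8 cells at 0 h. At 0.5 and 2 h its values ran from 37.87 to 47.61 CPM in MB468 and from 40.24 to 47.81 CPM in MB468res-R8, and none of the 4 tests passed the threshold, but with spike-in scaling MXD4 fell by 0.50 in MB468 at 2 h (adjusted p = 0.00179). At 12 h it fell to 13.99, 15.13 and 13.79 CPM in MB468 (log2 -1.51, SE 0.0754, adjusted p = 9.12e-21) and to 25.51, 20.82 and 25.11 CPM in MB468res-R8 (log2 -0.99, SE 0.0728, adjusted p = 4.56e-15). The groups at 12 h did not overlap any other group, and the fall was smaller in MB468res-R8 by log2 0.52 (SE 0.105, adjusted p = 4.77e-05), or 0.77 with spike-in scaling (adjusted p = 0.000674). The 0 h difference was 0.23 (SE 0.0698, adjusted p = 0.00587) but turned to -0.09 with spike-in scaling (adjusted p = 0.605), and was not past the threshold without MB468 0 h replicate 2 (0.17) or MB468res-R8 0 h replicate 2 (0.17).

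MXI1 (chr10:110207605-110287365, plus strand) moved in opposite directions in the lines at 12 h. It was at 45.32, 42.03 and 46.27 CPM in MB468 cells at 0 h and at 54.46, 59.22 and 57.85 CPM at 12 h, a rise of log2 0.36 (SE 0.0542, adjusted p = 1.77e-07). In MB468res-R8 cells it fell from 35.77, 36.78 and 38.05 CPM to 31.17, 32.24 and 31.00 CPM (log2 -0.23, SE 0.0583, adjusted p = 0.000908). Neither line's groups overlapped, and the difference was -0.59 (SE 0.0796, adjusted p = 3.82e-08). With spike-in scaling these were 0.12 (adjusted p = 0.439), -0.21 (adjusted p = 0.231) and -0.33 (adjusted p = 0.165). At 0.5 h it rose by 0.20 in MB468 (adjusted p = 0.00536) and 0.21 in MB468res-R8 (adjusted p = 0.00409), values that were -0.02 (adjusted p = 0.925) and 0.25 (adjusted p = 0.265) with spike-in scaling, and without MB468 0 h replicate 2 the MB468 value was 0.14 (adjusted p = 0.0926). At 2 h the values were 0.10 and -0.02, neither past the threshold, and -0.33 with spike-in scaling in MB468 (adjusted p = 0.0279). At 0 h MXI1 was lower in MB468res-R8 by -0.27 (SE 0.0569, adjusted p = 9.3e-05).

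MXD3 (chr5:177301461-177312757, minus strand), a member known from S phase of dividing cells, had the lowest single raw count of the network (175). At 0.5 h it rose from 13.84, 10.75 and 13.03 CPM to 18.70, 17.59 and 19.96 CPM in MB468 (log2 0.58, SE 0.0981, adjusted p = 7.06e-06) and from 14.89, 15.10 and 15.23 CPM to 18.98, 21.44 and 23.97 CPM in MB468res-R8 (log2 0.51, SE 0.095, adjusted p = 3.75e-05). The groups did not overlap in either line, but the MB468 value was 0.36 with spike-in scaling (adjusted p = 0.0745). At 2 h the values were 0.16 (adjusted p = 0.332) and 0.20 (adjusted p = 0.34). At 12 h MXD3 was at 14.98, 14.13 and 14.12 CPM in MB468 (log2 0.21, adjusted p = 0.0517) and fell to 13.17, 11.26 and 11.99 CPM in MB468res-R8 (log2 -0.31, SE 0.0988, adjusted p = 0.00701). The 12 h difference was -0.52 (SE 0.138, adjusted p = 0.00152). With spike-in scaling the 12 h values were -0.04, -0.30 (adjusted p = 0.111) and -0.26 (adjusted p = 0.359). The MB468 value passed the threshold without MB468 0 h replicate 1 (0.27, adjusted p = 0.0283), and the MB468res-R8 value did not without MB468res-R8 12 h replicate 2 (-0.24, adjusted p = 0.0604). The 0 h difference of 0.27 (adjusted p = 0.0198) was -0.05 with spike-in scaling (adjusted p = 0.817) and was lost without MB468 0 h replicate 2 (0.15), MB468res-R8 0 h replicate 2 (0.26) or MB468res-R8 0 h replicate 3 (0.25).

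MLX (chr17:42567072-42573239, plus strand) was higher at 12 h than at 0 h in both lines. It went from 73.96, 73.21 and 68.94 CPM to 100.2, 107.1 and 96.29 CPM in MB468 (log2 0.48, SE 0.0456, adjusted p = 2.42e-12) and from 75.16, 75.19 and 75.24 CPM to 88.83, 90.46 and 85.53 CPM in MB468res-R8 (log2 0.23, SE 0.0465, adjusted p = 4.31e-05). The groups did not overlap in either line, and the line difference was -0.25 (SE 0.0652, adjusted p = 0.000991). With spike-in scaling these were 0.26 (adjusted p = 0.0783), 0.25 (adjusted p = 0.109) and 0.00 (adjusted p = 0.99). At 0.5 h MLX rose in MB468res-R8 by 0.18 (adjusted p = 0.00207), which was 0.23 with spike-in scaling (adjusted p = 0.301), and in MB468 the value was 0.04 (adjusted p = 0.546). At 2 h the values were 0.11 (adjusted p = 0.106) in MB468, which turned to -0.31 with spike-in scaling (adjusted p = 0.032), and -0.06 (adjusted p = 0.7) in MB468res-R8. The 0 h difference was 0.06 (adjusted p = 0.303). The MLX transcript shares 32.8% of its length with PSMC3IP on the other strand, and reads of the shared part cannot be assigned without strand.

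MGA (chr15:41621134-41773081, plus strand) dipped at 2 h and was higher at 12 h. In MB468 cells it was at 95.06, 106.6 and 94.21 CPM at 0 h and at 74.84, 83.20 and 70.17 CPM at 2 h (log2 -0.38, SE 0.063, adjusted p = 1.89e-05), or -0.79 with spike-in scaling (adjusted p = 1.22e-07). In MB468res-R8 cells it was at 75.27, 74.60 and 79.26 CPM at 0 h and at 62.85, 62.36 and 73.83 CPM at 2 h (log2 -0.21, SE 0.0628, adjusted p = 0.0475). This last call was lost on leaving out any of 5 of the 6 libraries compared, the exception being MB468res-R8 2 h replicate 3, with values from -0.23 to -0.16, and with spike-in scaling (-0.26, adjusted p = 0.998). At 12 h MGA rose in MB468res-R8 to 103.3, 109.5 and 107.9 CPM (log2 0.49, SE 0.0609, adjusted p = 1.66e-08), also with spike-in scaling (0.51, adjusted p = 0.000523). In MB468 it was at 111.5, 113.5 and 104.0 CPM at 12 h, overlapping 0 h (log2 0.15, SE 0.059, adjusted p = 0.025). That call was lost without MB468 0 h replicate 1 (0.10) or 3 (0.10) and without MB468 12 h replicate 1 (0.13) or 2 (0.12), with DESeq2's size factors (0.13, adjusted p = 0.056), with DESeq2's Wald test (0.13, adjusted p = 0.0634), and turned to -0.08 with spike-in scaling (adjusted p = 0.63). The 12 h difference was 0.34 (SE 0.0848, adjusted p = 0.000915), or 0.59 with spike-in scaling (adjusted p = 0.00572). At 0.5 h the values were -0.04 (adjusted p = 0.71) and 0.05 (adjusted p = 0.624). At 0 h MGA was lower in MB468res-R8 by -0.37 (SE 0.0612, adjusted p = 3.3e-06).

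**Figure D2:**
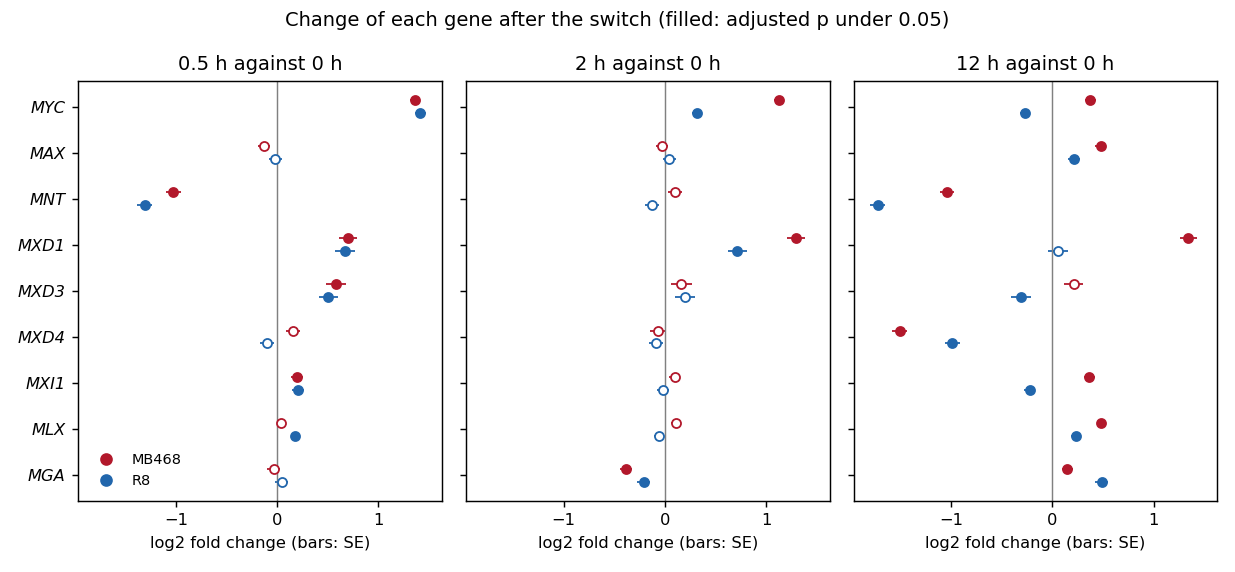
Log2 fold change from 0 h (horizontal axis, bars are SE) of each network gene (vertical axis) at 0.5, 2 and 12 h, with MB468 in red, MB468res-R8 in blue and filled symbols for an adjusted p under 0.05. The lines lie close together at 0.5 h and differ for MYC and MXD1 at 2 h. At 12 h MYC, MXI1 and MXD3 lie on opposite sides of 0, with MXD3 in MB468 short of the threshold. None of these 12 h values passed it with spike-in scaling.

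Counted over the network, 6 of 9 genes differed between the lines at 0 h, against 53.5% of all tested genes, with 2 higher in MB468res-R8 (26.4% of all) and 4 lower (27.1%). At 0.5 h in MB468 cells 5 of 9 changed, against 33.9% of all genes, 4 of them higher (17.6%) and 1 lower (16.4%). At 0.5 h in MB468res-R8 cells 6 of 9 changed, against 33.7%, 5 of them higher (17.4%) and 1 lower (16.3%). MYC, MXD1, MXD3 and MXI1 rose and MNT fell in both lines, and MLX was the sixth gene in MB468res-R8. At 2 h 3 of 9 changed in each line, with MYC and MXD1 higher and MGA lower. The share of all genes at 2 h was 16.3% in MB468 (8.88% higher, 7.47% lower) and 4.37% in MB468res-R8 (2.52% higher, 1.85% lower). At 12 h 8 of 9 changed in MB468, against 70.8% of all genes, 6 higher (36.1%) and 2 lower (34.7%). At 12 h 8 of 9 changed in MB468res-R8, against 61.3%, 3 higher (30.2%) and 5 lower (31.1%). The 12 h counts of the network thus stand beside shares of all genes that were themselves 61.3% and 70.8%.

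For the difference between the lines in the response, none of the 9 genes passed the threshold at 0.5 h, against 2.9% of all genes (1.2% higher in MB468res-R8, 1.7% lower). At an unadjusted p under 0.05 there were 3 (MXD4, MNT and MLX), and DESeq2's Wald test called 0. At 2 h 2 of 9 differed, MYC and MXD1, both lower in MB468res-R8, against 5.07% of all genes (2.19% higher, 2.88% lower). At 12 h 9 of 9 differed, against 56.5% of all genes, with MXD4 and MGA higher in MB468res-R8 (26.2% of all genes higher) and the other 7 lower (30.3% lower). With spike-in scaling 0 remained past the threshold at 2 h and 3 at 12 h, namely MXD1, MXD4 and MGA.

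Differences between genes in level were compared per kb of the canonical transcript. At 0 h in MB468 cells MYC was at 106 ± 6.33 CPM per kb (SD, n = 3), MLX at 30.5 ± 1.15, MAX at 21.1 ± 0.881, MXI1 at 12.8 ± 0.641, MNT at 11.9 ± 0.779, MXD3 at 11.8 ± 1.50, MXD4 at 10.5 ± 0.535, MGA at 8.09 ± 0.567 and MXD1 at 3.23 ± 0.176. By this length MYC was thus the highest of the 9 per kb and MXD1 the lowest. The place of MXD3 rests on its canonical transcript of 1.067 kb, while its joined exons add up to 4.743 kb. For MXD1 these lengths were 5.549 and 6.351 kb, and the order by joined exons is not given. The shares and the ratio below use the canonical lengths too. MYC made up 49.2 ± 1.95% of the summed per-kb level of the 9 genes in MB468 at 0 h, 70.7 ± 0.267% at 0.5 h, 66.5 ± 1.64% at 2 h and 51.7 ± 1.04% at 12 h. In MB468res-R8 its share was 50.7 ± 1.29%, 72.2 ± 1.01%, 56.2 ± 1.38% and 47.7 ± 1.14%. MAX took 9.77 ± 0.211% in MB468 at 0 h and 4.98 ± 0.164% at 0.5 h. MNT went from 5.48 ± 0.406% to 1.50 ± 0.0774% in the same interval. MXD4 went from 4.86 ± 0.327% at 0 h to 1.38 ± 0.0759% at 12 h, while MXD1 went from 1.49 ± 0.0923% to 3.07 ± 0.0952%.

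**Figure D3:**
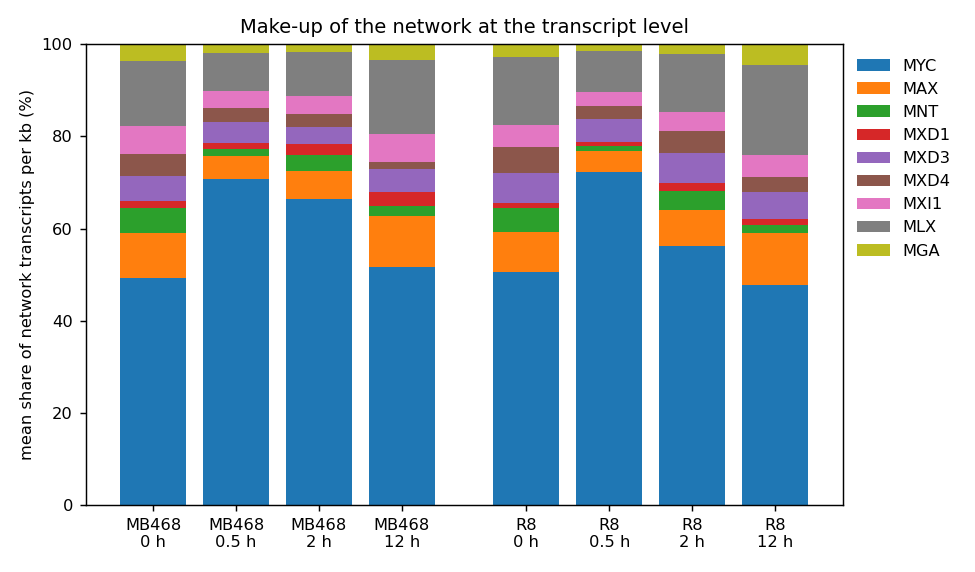
Mean share (percent, vertical axis) of each network gene in the summed CPM per kb of the 9 genes for the 8 groups of 3 libraries, MB468 on the left and MB468res-R8 on the right. MYC takes 49.2% and 50.7% at 0 h and 70.7% and 72.2% at 0.5 h, and at 2 h it takes 66.5% in MB468 against 56.2% in MB468res-R8.

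The ratio of MYC to its summed antagonists (MXD1, MXD3, MXD4, MXI1 and MNT, per kb within each library) needs no scaling between libraries, since its parts come from the same library. It was 1.96, 2.46 and 1.99 in MB468 cells and 2.05, 2.21 and 2.29 in MB468res-R8 cells at 0 h, with overlapping ranges. At 0.5 h it was 5.15, 4.96 and 4.83 in MB468 and 6.15, 5.55 and 5.28 in MB468res-R8, without overlap. At 2 h it was 4.13, 4.23 and 3.82 in MB468 but 2.40, 2.67 and 2.89 in MB468res-R8, so that the lines did not overlap. At 12 h it was 2.90, 2.82 and 2.99 in MB468 and 2.73, 2.77 and 2.95 in MB468res-R8.

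The log2 change of the ratio from 0 h was 1.23, 0.93 and 0.45 in MB468 and 1.37, 0.28 and 0.37 in MB468res-R8 at 0.5, 2 and 12 h, and every library after the switch lay above all 0 h libraries of its line. The change in MB468res-R8 minus that in MB468 was 0.14 at 0.5 h, -0.66 at 2 h and -0.08 at 12 h. The ratio thus did not overlap between the lines at 0.5 h, with MB468res-R8 higher, or at 2 h, with MB468 higher. It overlapped at 12 h. Mean CPM at 12 h was lower in MB468res-R8 than in MB468 for MYC (341 against 514), MNT (16.8 against 28.2), MXD1, MXD3 and MXI1. It was higher for MXD4 (23.8 against 14.3). No test was run on the ratio, and an exact permutation test of 3 libraries against 3 could not go below a p of 0.1. Leaving MNT out of the antagonists lowered the 12 h change to 0.25 in MB468 and 0.17 in MB468res-R8.

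**Figure D4:**
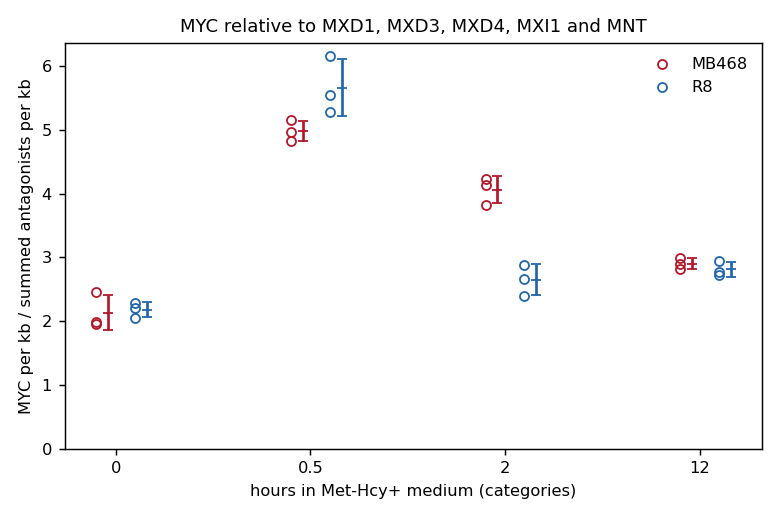
Ratio of MYC to the sum of MXD1, MXD3, MXD4, MXI1 and MNT, all per kb (vertical axis, from 0), against hours in Met-Hcy+ medium (horizontal axis, categories), with circles for libraries and bars for mean ± SD of 3 libraries. Both lines lie near 2 at 0 h. At 0.5 h the MB468 libraries (4.83 to 5.15) lie below those of MB468res-R8 (5.28 to 6.15). At 2 h the MB468 libraries (3.82 to 4.23) lie above those of MB468res-R8 (2.40 to 2.89).

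Among the relatives and cofactors of MYC and MondoA, 15 genes in all, MYCN differed between the lines at 0 h. MYCN, the paralog of MYC known from neural tumours, was at 6.44 ± 0.956 CPM in MB468 cells and 0.598 ± 0.136 CPM in MB468res-R8 cells at 0 h (SD, n = 3; log2 -3.41, SE 0.209, adjusted p = 1.78e-17). It rose at 0.5 h in both lines, to 12.4 ± 1.20 CPM (log2 0.94, adjusted p = 1.12e-06) and 2.12 ± 0.326 CPM (log2 1.82, adjusted p = 6.6e-08). MYCN was singled out after its values were seen. MYCL, the third paralog, had group means of 0.21 to 0.635 CPM. Of the 15 genes 3 were higher and 6 lower in MB468res-R8 at 0 h. In MB468 3 rose and 5 fell at 0.5 h, 1 fell at 2 h, and 9 rose and 3 fell at 12 h. In MB468res-R8 3 rose and 3 fell at 0.5 h, 1 rose at 2 h, and 5 rose and 4 fell at 12 h. The response differed between the lines for 0 genes at 0.5 h, 1 at 2 h and 12 at 12 h (5 higher, 7 lower), the last beside 56.5% of all genes. The counts of this list and of those that follow are to be read against the shares of all genes given with the network counts. Under TMM these were 70.8% in MB468 and 61.3% in MB468res-R8 at 12 h, and 33.9% and 33.7% at 0.5 h. With spike-in scaling 1 of the 15 was higher and 8 lower at 0 h. At 2 h in MB468 13 fell under this scaling, with a median of -0.426 against -0.415 over all genes. At 12 h 3 rose and 3 fell in MB468, 4 rose and 2 fell in MB468res-R8, and the line difference passed for 5 higher genes and 1 lower.

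At 12 h TRRAP, the MYC coactivator scaffold, rose in MB468 by log2 0.69 (SE 0.0439, adjusted p = 2.36e-17) and SIN3A, the corepressor bound by MXD proteins, by 0.57 (adjusted p = 2.4e-16). The ChREBP gene MLXIPL fell by 1.83 in MB468 (adjusted p = 3.72e-11) and by 1.15 in MB468res-R8 (adjusted p = 8.72e-07). The deacetylase HDAC1 (-0.30) and the acetyltransferase KAT5 (-0.42) fell in MB468. In MB468res-R8 the acetyltransferase KAT2A rose by 0.72 (adjusted p = 3.14e-17), the MYC cofactor WDR5 by 0.54 and HDAC2 by 0.44, while SIN3B (-0.35) and the MYC partner Miz-1, ZBTB17 (-0.25), fell. KAT2A (0.43) and WDR5 (0.45) rose in MB468 as well, as TRRAP (0.36) and SIN3A (0.11) did in MB468res-R8. The response in MB468res-R8 was higher for HDAC2 (0.41), HDAC1 (0.36) and KAT2A (0.29), and lower for SIN3B (-0.60) and SIN3A (-0.46). With spike-in scaling the fall of ZBTB17 in MB468res-R8 (-0.24) and the line differences of SIN3B (-0.35) and SIN3A (-0.20) did not pass the threshold. Nor did the rises of KAT2A and WDR5 in MB468 and of SIN3A in MB468res-R8. MondoA itself, MLXIP, was lower in MB468res-R8 at 0 h, at 64.8 ± 2.14 CPM against 98.6 ± 2.52 CPM (log2 -0.60, adjusted p = 2.93e-13). ZBTB17 was higher in MB468res-R8 at 0 h, at 76.6 ± 0.741 CPM against 27.1 ± 1.46 CPM (log2 1.49, adjusted p = 5.86e-22). At 12 h ZBTB17 was at 64.3 ± 3.45 CPM in MB468res-R8 and 34.1 ± 1.61 CPM in MB468.

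Genes of MYC protein turnover were tested for 10 of 11. At 0 h 3 were higher and 2 lower in MB468res-R8. In MB468 5 rose and 2 fell at 0.5 h, 1 rose and 2 fell at 2 h, and 6 rose and 2 fell at 12 h, and in MB468res-R8 5 rose and 3 fell, 0 changed, and 4 rose and 4 fell. The line difference passed for 1 lower gene at 0.5 h, 1 higher at 2 h, and 2 higher and 4 lower at 12 h. AURKA, a mitotic kinase that also stabilises MYC-family proteins, rose at 12 h by 0.67 in MB468 (adjusted p = 5.2e-17) and 1.33 in MB468res-R8 (adjusted p = 1.8e-25). FBXL14, a ubiquitin ligase component, rose by 1.01 in MB468 (adjusted p = 6.44e-13) with a line difference of -1.33 (adjusted p = 3.5e-11), and the deubiquitinase USP28 rose by 0.32. The kinase GSK3B fell by 0.26 in MB468 and 0.48 in MB468res-R8, and the ligase HUWE1 by 0.20 and 0.18. In MB468res-R8 the ligase component SKP2 rose by 0.70 (adjusted p = 1.11e-14), the phosphatase subunit PPP2R5A rose by 0.27 and the deubiquitinase USP36 fell by 1.05 (adjusted p = 4.34e-09). The line difference was 0.66 for AURKA, 0.51 for SKP2, -1.24 for USP36 and -0.23 for GSK3B. In MB468 SKP2 (0.19) and PPP2R5A (0.20) rose too, and in MB468res-R8 USP28 rose by 0.15. With spike-in scaling 9 of the 10 fell at 2 h in MB468, with a median of -0.385 against -0.415 over all genes. At 12 h 2 rose and 2 fell in each line under this scaling. Calls lost were those of USP28 in MB468 (0.08) and of PPP2R5A (0.29) and HUWE1 (-0.15) in MB468res-R8. The line difference of GSK3B (0.04) was lost too, with the opposite sign. So were the rises of SKP2 and PPP2R5A in MB468 and of USP28 in MB468res-R8.

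The partners of MGA in its Polycomb complex were tested for 8 of 9 (RING1 did not pass the filter). At 0 h 1 was higher and 3 lower in MB468res-R8. In MB468 1 rose and 1 fell at 0.5 h and likewise at 2 h, and 4 rose and 2 fell at 12 h. In MB468res-R8 1 rose at 0.5 h, 0 changed at 2 h, and all 8 rose at 12 h, though 2 did with spike-in scaling. The line difference passed for 0 genes at 0.5 h, for 1 lower gene at 2 h, and for 4 higher and 3 lower genes at 12 h. PCGF6, the subunit that defines this complex, rose at 12 h by 0.99 in MB468 (adjusted p = 1.25e-10) and 0.83 in MB468res-R8 (adjusted p = 4.03e-08). In MB468 the histone-binding L3MBTL2 rose by 0.66 and RYBP by 0.66, while TFDP1 (-0.29) and CBX3 (-0.55) fell. TFDP1 and CBX3 rose in MB468res-R8, by 0.27 and 0.32, so that their line differences were 0.56 (adjusted p = 1.42e-12) and 0.87 (adjusted p = 2.7e-09), with 0.36 for E2F6, -0.48 for L3MBTL2, -0.43 for RYBP and -0.42 for YAF2. L3MBTL2 (0.18) and RYBP (0.23) rose in MB468res-R8 as well. With spike-in scaling the line difference passed for 0 genes at 2 h and for 4 higher and 0 lower at 12 h. The differences of L3MBTL2 (-0.22), RYBP (-0.17) and YAF2 (-0.18) were thus lost. So were the rises of TFDP1 (0.29), L3MBTL2 and RYBP in MB468res-R8.

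Transcripts known to be induced by MYC were tested for 28 of 30 genes, since CCND2 and EIF4A1 are listed at 0 in all libraries. At 0.5 h, when MYC was at its highest, 14 of the 28 fell in MB468 and 14 in MB468res-R8, against 16.4% and 16.3% of all genes, and 0 and 1 rose. With spike-in scaling 14 fell in MB468 and 5 in MB468res-R8, and 0 rose in either. At 2 h 3 rose and 4 fell in MB468, and 2 rose and 0 fell in MB468res-R8. At 12 h 11 rose and 9 fell in MB468 (median log2 0.10 over the 28, against 0.01 over all genes, and, with spike-in scaling, 3 rose and 9 fell, with a median of -0.14 against -0.23). In MB468res-R8 24 rose and 1 fell at 12 h, a median of 0.53 against -0.02 over all genes, and 24 rose also with spike-in scaling. MYC itself was below its 0 h level in that group under TMM (-0.27). With spike-in scaling its value there was -0.25 and did not pass the threshold (adjusted p = 0.101). The 12 h response was higher in MB468res-R8 for 24 genes and lower for 3, and with spike-in scaling for 24 and 0. At 0 h 5 were higher and 17 lower in MB468res-R8, and the line difference passed for 1 lower gene at 0.5 h and 1 higher gene at 2 h. With spike-in scaling 26 of the 28 fell at 2 h in MB468, with a median of -0.395 against -0.415 over all genes.

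By gene, IMPDH2, an enzyme of guanine nucleotide synthesis, fell from 180 ± 1.66 to 55.4 ± 2.07 CPM in MB468 at 12 h (log2 -1.70, SE 0.0424, adjusted p = 1.61e-30), and was at 209 ± 8.48 CPM in MB468res-R8 at 12 h against 153 ± 1.01 CPM at 0 h. Its line difference was 2.15 (SE 0.0583, adjusted p = 1.49e-28). The transferrin receptor TFRC fell in MB468 by 1.45 (adjusted p = 2.11e-29), with a line difference of 1.47. The mitochondrial chaperonin HSPD1 fell from 1186 ± 31.8 to 805 ± 20.6 CPM in MB468 and rose from 933 ± 22.5 to 1702 ± 45.4 CPM in MB468res-R8 (line difference 1.43, adjusted p = 5.25e-23). Processed copies of HSPD1 and NPM1 elsewhere in the genome may share reads with them, which makes their counts uncertain. The nucleolar proteins NCL and NPM1 rose in MB468res-R8 by 0.84 (adjusted p = 8.29e-22) and 0.86 (adjusted p = 1.29e-18). The ribosome assembly factor RRS1 (1.18, adjusted p = 4.27e-21), the RNA polymerase I subunit POLR1B (0.88) and spermidine synthase SRM (0.63) rose in MB468, and rose in MB468res-R8 by 0.61, 0.64 and 0.81 in that order. In MB468 NCL rose by 0.43, a call lost with spike-in scaling, and NPM1 fell by 0.62. SHMT2, the mitochondrial serine hydroxymethyltransferase, was the gene that fell in MB468res-R8, by 0.47 (adjusted p = 1.11e-07). Lower responses in MB468res-R8 were found for SHMT2 (-0.62), RRS1 (-0.57) and POLR1B (-0.24), all 3 lost with spike-in scaling, at -0.36, -0.32 and 0.01.

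**Figure D5:**
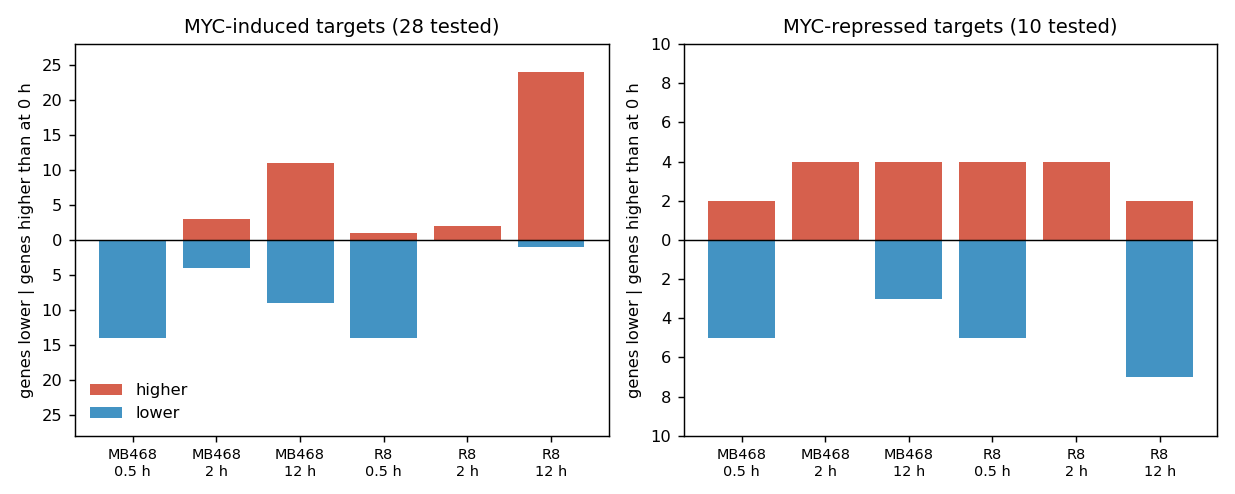
Number of genes called higher (upward, red) and lower (downward, blue) than at 0 h at an adjusted p under 0.05 among 28 tested MYC-induced and 10 tested MYC-repressed genes, for each line and time (horizontal axis). In the MYC-induced list 14 fell at 0.5 h in each line, and at 12 h 24 rose in MB468res-R8 and 11 in MB468. With spike-in scaling 5 fell in MB468res-R8 at 0.5 h and 3 rose in MB468 at 12 h.

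Transcripts known to be repressed by MYC were tested for 10 of 10 genes. At 0 h 4 were higher and 3 lower in MB468res-R8. In MB468 2 rose and 5 fell at 0.5 h, 4 rose at 2 h, and 4 rose and 3 fell at 12 h. In MB468res-R8 4 rose and 5 fell at 0.5 h, 4 rose at 2 h, and 2 rose and 7 fell at 12 h (median log2 -0.57, and 1 rose and 5 fell with spike-in scaling). The line difference passed for 1 lower gene at 0.5 h, for 1 higher and 2 lower at 2 h, and for 1 higher and 6 lower at 12 h. With spike-in scaling 2 rose and 5 fell at 2 h in MB468, with a median of -0.346 against -0.415 over all genes. Under this scaling the line difference passed for 1 higher gene and 0 lower at 2 h and for 1 higher and 3 lower at 12 h. GADD45A, a stress-induced growth arrest gene, rose at 12 h in MB468 from 35.0 ± 1.73 to 79.5 ± 7.60 CPM and fell in MB468res-R8 from 67.6 ± 4.61 to 33.1 ± 3.25 CPM, a line difference of -2.22 (SE 0.114, adjusted p = 1.15e-15). The cell cycle inhibitor CDKN2B rose in MB468 by 0.61 (adjusted p = 7.37e-13) and fell in MB468res-R8 by 1.21 (adjusted p = 8.38e-20), a difference of -1.82 (adjusted p = 3.31e-21). The p21 gene CDKN1A fell in both lines, by 1.49 (adjusted p = 1.43e-07) and 2.41 (adjusted p = 1.42e-10). The differentiation factor CEBPA rose by 1.13 and 0.39, with a difference of -0.74, the inhibitor CDKN2C rose by 0.20 in MB468res-R8, and THBS1 fell by 0.61 in MB468 and 0.92 in MB468res-R8. NDRG2 fell by 1.71 in MB468 (adjusted p = 9.08e-17) and by 1.03 in MB468res-R8, with a difference of 0.68. With spike-in scaling the rise of CDKN2C (0.22) and the difference of CEBPA (-0.47) did not pass the threshold.

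Of 3 known targets of MondoA with MLX, KLF10 was tested, while ARRDC4 did not pass the filter and TXNIP is listed at 0 in all 24 libraries, as is EIF4A1, which every cell uses. KLF10, a TGF-beta-induced zinc finger repressor, also rose early in both lines. It rose at 0.5 h from 53.8 ± 4.99 to 144 ± 3.36 CPM in MB468 and from 60.5 ± 6.46 to 176 ± 7.34 CPM in MB468res-R8. At 2 and 12 h it was at 142 ± 3.73 and 125 ± 2.51 CPM in MB468 but at 50.9 ± 1.38 and 52.7 ± 1.84 CPM in MB468res-R8, falls of 0.24 and 0.19 that did not pass with spike-in scaling (adjusted p = 0.698 and 0.291). The line difference was 0.12 at 0.5 h, not past the threshold, -1.65 at 2 h and -1.41 at 12 h (adjusted p = 1.03e-17), and with spike-in scaling -1.28 and -1.16, both past it. At 0 h KLF10 was higher in MB468res-R8 by 0.17, which turned to -0.14 with spike-in scaling.

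Genes whose pattern over the 8 group means was most like that of MYC were found by the root mean square difference of centred log2 CPM among the 6390 other genes whose mean log2 CPM reached 5. The 5 nearest were SLC25A25 (0.20), a mitochondrial carrier, ZFP36L1 (0.24), an mRNA decay factor, HERPUD1 (0.24), a component of endoplasmic reticulum protein degradation, PNRC1 (0.27) and the kinase RIPK4 (0.30), where the SD of the MYC pattern itself was 0.66. ZFP36L1 had group means of 211, 761, 504 and 331 CPM in MB468 at 0, 0.5, 2 and 12 h and of 215, 697, 229 and 158 CPM in MB468res-R8. It shared with MYC the peak at 0.5 h in both lines, the high 2 h level in MB468 and the 12 h level below 0 h in MB468res-R8. Nearest to MXD1 were ERRFI1 (0.25), a feedback inhibitor of EGFR, TUBE1 (0.28) and GRPEL2 (0.30), against an SD of 0.68. Nearest to MXD4 were SYNGR1 (0.08), the sodium channel subunit SCNN1A (0.08) and DPYSL2 (0.10), against an SD of 0.61, and nearest to MXI1 were POPDC3, UBTD2 and DENND4B (0.07 to 0.08), against an SD of 0.28. MYC, MXD1, MXD4 and MXI1 were chosen for this search, and the likeness is a description over 8 group means with no test.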

How the data were processed

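Poly(A) RNA with ERCC spike-ins was sequenced in 24 libraries (single-end, 100 bp). Per the paper's methods and the submitters' processing notes, the authors used HISAT2 2.1.0 for alignment to GRCh38/hg38 plus the ERCC sequences, and featureCounts (Subread 1.5.3) for gene counting. From the deposited table of raw counts, 26645 entries for genes entered here, and the 92 for spike-ins were kept apart for scaling. Whether counting used strand is not given in the sources used here, and the kit does not mark strand. The other deposited files, the authors' normalized counts of fewer libraries and their own comparison (fold changes and p-values), were not used.

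The tests were run with edgeR 4.0.16 under R 4.3.3: filterByExpr (minimum count 10, minimum total 15), TMM factors, a robust quasi-likelihood model with 8 group means and Benjamini-Hochberg adjustment over 14741 genes. DESeq2 1.42.0 served as an alternative. The ratio of MYC to its antagonists has no test. Lengths and positions are from GENCODE 44 canonical transcripts on GRCh38, promoters from RefSeq. The code was tested on simulated counts. The members and lists were chosen with earlier results of these data known. The named genes are all 9 members, up to 3 called genes of each list and direction with the smallest p at 12 h and for the 12 h line difference, and the nearest genes in pattern. Other genes named were chosen after their values were seen, and 1 gene that the rule names is not reported here. The lists held MYC and MondoA relatives and cofactors, MYC protein turnover, MGA partners, MYC-induced, MYC-repressed and MondoA-MLX targets, and markers. The labels call libraries replicates and do not say that they came from separate cultures, so p-values measure only the spread between these samples, which may be technical. The settings varied were the size factors (from DESeq2 or from spike-ins), other low-count filters, fewer libraries, a replicate block, a threshold of 0.01, and leaving out each library. A ratio with the joined exon length, and the lists under other scalings, were added after seeing the data.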

Additional observations from a re-analysis of the deposited data

Results flagged for a closer look

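The response to the switch differed between the lines, by a test of the difference itself, for 2 network genes at 2 h and 9 at 12 h, given as log2 values that are negative where MB468res-R8 responded lower (edgeR, adjusted over 14741 genes). At 2 h these were MYC at -0.81 (adjusted p = 1.04e-09) and MXD1 at -0.58 (adjusted p = 0.0035). At 12 h they were MYC at -0.65 (adjusted p = 4.75e-09), MAX at -0.27 (adjusted p = 0.00649), MXD1 at -1.29 (adjusted p = 7.87e-11), MXD3 at -0.52 (adjusted p = 0.00152), MXD4 at 0.52 (adjusted p = 4.77e-05), MXI1 at -0.59 (adjusted p = 3.82e-08), MNT at -0.68 (adjusted p = 2.37e-07), MLX at -0.25 (adjusted p = 0.000991) and MGA at 0.34 (adjusted p = 0.000915). The share of all genes that differed was 5.07% at 2 h and 56.5% at 12 h. Only MXD1 (-1.02), MXD4 (0.77) and MGA (0.59) at 12 h stayed past the threshold with spike-in scaling. MB468 2 h replicate 2 had 8251 counts of RN7SK, against 44 to 357 in the other libraries, and leaving it out left the counts of network genes called at 2 h at 3 in MB468 and 2 for the line difference.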

How the results depend on the processing

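Scaling by spike-in totals changed most. The counts of network genes called became 3, 8 and 3 in MB468 at 0.5, 2 and 12 h, 1 and 3 in MB468res-R8 at 2 and 12 h, and 0 and 3 for the line difference at 2 and 12 h. At 0.5 h in MB468res-R8 the calls of MXI1 and MLX were lost. For the 0 h line difference MXD3 and MXD4 were lost and MNT was gained. Called log2 values that changed sign, or that turned and passed the threshold, under it were MXD3 (-0.047) and MXD4 (-0.089) at 0 h, and in MB468 MXI1 at 0.5 h (-0.022), MXI1 (-0.33), MNT (-0.32) and MLX (-0.31) at 2 h and MGA at 12 h (-0.077). Of 90 gene values, 58 stayed on their side of the threshold with no called value turning in sign, 22 lost a call and 3 gained one with their sign kept, and among the 58 were 14 uncalled values whose sign did turn. DESeq2's size factors and its Wald test each lost 1 call, MGA at 12 h in MB468, and a threshold of 0.01 lost 4. No filter on low counts, at least 10 counts in every library, and fitting only the libraries compared each kept 90 of 90. The replicate block also kept 90 of 90, with 6, 5, 3, 8, 6, 3, 8, 0, 2 and 9 genes called over the 10 comparisons. Replicate numbers did not pair the libraries, with mean correlations of deviations from -0.145 to 0.277 and no comparison with every pair over 0.1. Leaving out each library gave 702 values, of which 19 lost and 2 gained a call and 0 called values changed sign, and 24 uncalled ones did. The ratio of MYC to antagonists changed from 0 h by 1.37 in MB468 at 0.5 h and 1.56 and 0.51 in MB468res-R8 at 0.5 and 12 h without division by length, and by 1.002 and 0.25 in MB468 and 1.14 and 0.17 in MB468res-R8 at 0.5 and 12 h without MNT. The amount of cells or RNA that each spike-in dose stood for is not given in the sources used here, and the cause of the shift was not tested. The lowest raw count behind a network gene was 175 (MXD3).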
